A study of Mus musculus with 6 samples.

Results

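The genes by which mast cells make, store, take up and break down histamine and serotonin were followed in mast cells grown from bone marrow (BMMCs), in BALB/c and in C57BL/6. The 9 genes, of 35297 matched by name in the deposited tables, were listed by their role in amine metabolism: Hdc, Tph1, Ddc, Slc18a2, Slc6a4, Slc22a3, Hnmt, Maoa and Maob. All 9 had at least 1 transcript in the tables, and 8 had enough reads to be tested. The study asked how mast cells of these inbred strains differ at baseline. Both groups came from naive wild-type mice that carried no transgene, and the marrow was grown for 20 days in the same medium, which held stem cell factor, TGF-β1, IL-9 and IL-3. Each strain is represented by 3 libraries of poly(A) RNA, S9, S10 and S11 for BALB/c and S12, S13 and S14 for C57BL/6. The paper calls them 3 biological replicates, while the labels do not say whether the libraries of a strain came from separate mice or cultures. The p-values therefore measure the spread between these libraries. Cells grown in this medium lack the contact with tissue that shapes mast cells in the animal, and the sex and age of the marrow donors are not given in the labels.

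Histamine is made in a single step, when histidine decarboxylase (Hdc) removes the carboxyl group of histidine. Serotonin needs 2 steps, since tryptophan hydroxylase 1 (Tph1) first forms 5-hydroxytryptophan, the step that limits the rate, and the aromatic amino acid decarboxylase (Ddc) then turns this into serotonin. Both amines are loaded into granules by the vesicular monoamine transporter 2 (Slc18a2) and held there with heparin-type proteoglycans until the cell degranulates. Outside the granule, the serotonin transporter (Slc6a4) and the organic cation transporter 3 (Slc22a3) carry amines across the plasma membrane. Histamine N-methyltransferase (Hnmt) inactivates histamine in the cytosol, and the mitochondrial monoamine oxidases (Maoa and Maob) oxidise serotonin and other amines. Rodent mast cells are known for storing serotonin beside histamine.

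Transcripts of Tph1, Slc18a2, Maob and, at a lower level, Ddc were abundant in these BMMCs, while those of Hdc, Maoa, Slc6a4 and Slc22a3 were scarce, in both strains. Ddc was about 3-fold lower in C57BL/6 than in BALB/c BMMCs (fold change 2.95), and Hdc was higher in C57BL/6 by a fold change of 2.29. The uptake carriers Slc6a4 and Slc22a3 were also higher in C57BL/6, but at only a few reads per library. Tph1 and Maoa were lower in C57BL/6 by less than 2-fold, and no read was assigned to Hnmt. Slc18a2 and Maob differed by less than 10% with the scaling used here, but this depended on the scaling. With plain library size the log2 fold change, C57BL/6 over BALB/c, was -0.04 for Slc18a2 and -0.25 for Maob. Genes were called different at an adjusted p under 0.05 in edgeR's quasi-likelihood test and a fold change above 2, which 4 of the 9 genes met, 3 of them higher in C57BL/6 while 1 was higher in BALB/c. Among all 12461 genes tested, 13.3% met both criteria, 7.73% with C57BL/6 higher and 5.54% with BALB/c higher. Slc6a4 and Slc22a3 passed the filter on low counts only through C57BL/6, so the direction of these calls was a condition of being tested, and the count of members is not read against these shares. The libraries of one strain lay outside the range of the other for all 8 genes tested, which the filter forced for Slc6a4 and Slc22a3, and for 61.9% of all genes tested.

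**Figure D1:**
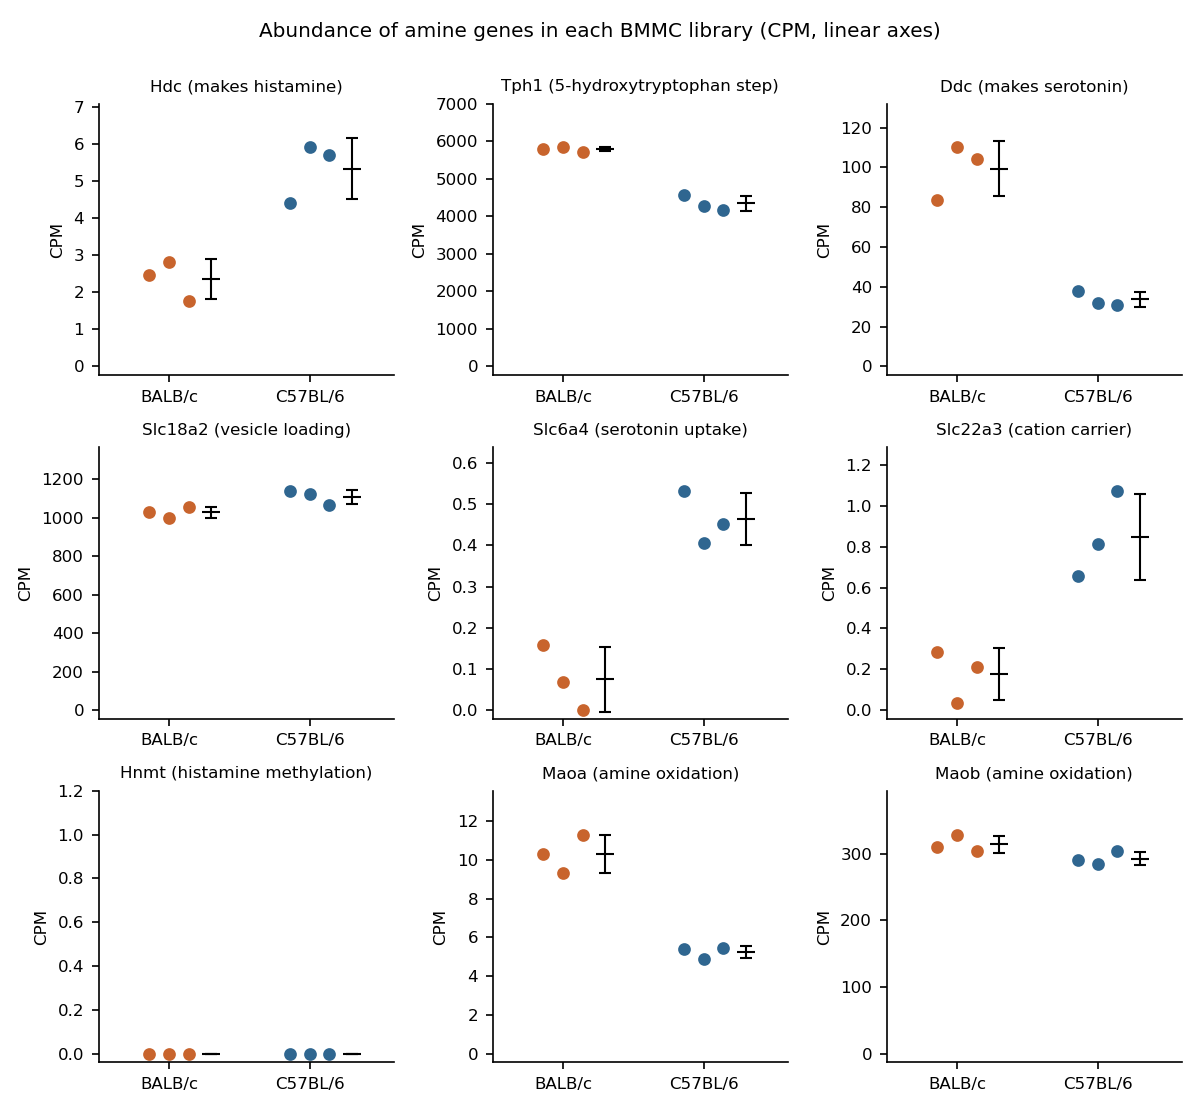
Abundance of the 9 amine genes in read counts scaled to library size (CPM, vertical axes, linear, each with its own range) in the 3 BALB/c libraries (orange points) and the 3 C57BL/6 libraries (blue points); the black bar gives the mean and the SD. Tph1, Ddc and Maoa lie lower and Hdc, Slc6a4 and Slc22a3 higher in every C57BL/6 library, while Hnmt is at 0 in all 6.

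Levels of different genes were compared as TPM, a unit that corrects for transcript length as well as depth. In BALB/c BMMCs the order was Tph1 (3737 ± 170.3 TPM, SD, n = 3), Slc18a2 (401 ± 9.62 TPM), Maob (199 ± 9.30 TPM), Ddc (81.1 ± 10.5 TPM), Maoa (3.66 ± 0.317 TPM), Hdc (1.5 ± 0.36 TPM), Slc22a3 (0.0735 ± 0.0532 TPM), Slc6a4 (0.0415 ± 0.0440 TPM) and Hnmt at 0. Neighbours in this order did not overlap between libraries, apart from Slc22a3, Slc6a4 and Hnmt, whose ranges did. In C57BL/6 BMMCs the order was Tph1 (2595 ± 159.5 TPM, SD, n = 3), Slc18a2 (382 ± 16.4 TPM), Maob (164 ± 8.23 TPM), Ddc (24.3 ± 3.10 TPM), Hdc (3.01 ± 0.408 TPM), Maoa (1.65 ± 0.138 TPM), Slc22a3 (0.319 ± 0.0790 TPM), Slc6a4 (0.226 ± 0.0360 TPM) and Hnmt at 0. Here the ranges of Slc22a3 and Slc6a4 were the single pair of neighbours that overlapped. Hdc and Maoa thus stood in opposite order in the strains, and the other 7 genes in the same order. Tph1 lay above 99.6% of the genes tested in C57BL/6 and above 99.8% in BALB/c, while Hdc lay above 27.8% and 19.3%.

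**Figure D2:**
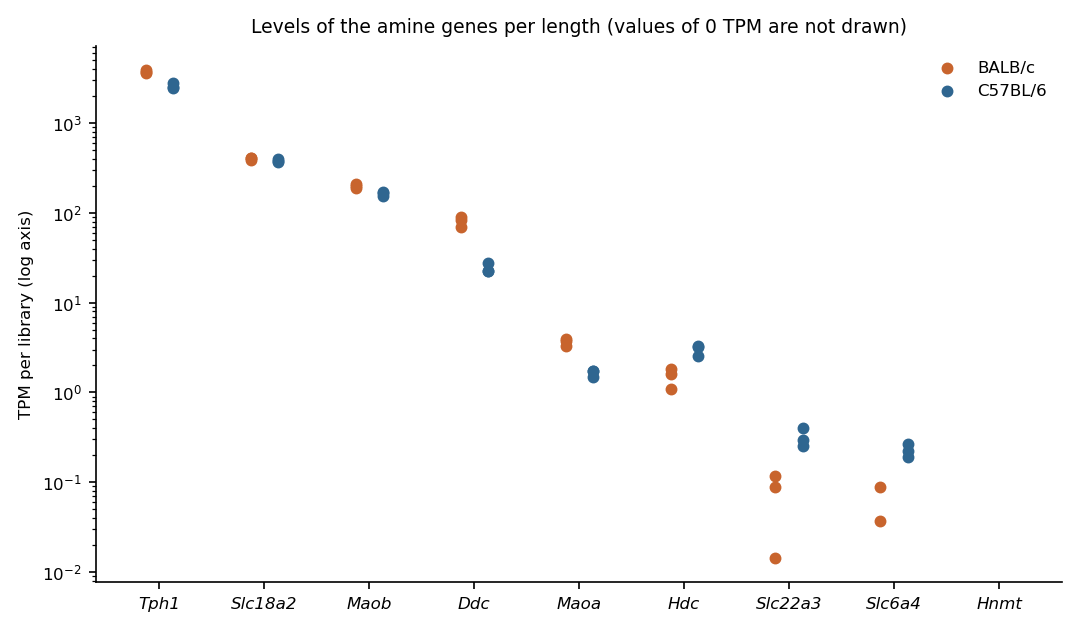
Level of each amine gene per transcript length (TPM, logarithmic vertical axis) in each library, with BALB/c in orange and C57BL/6 in blue; values of 0 are not drawn, which leaves out Hnmt in every library and Slc6a4 in S11. Tph1 lies at the top of the axis in both strains, and Slc22a3 and Slc6a4 lie under 1 TPM.

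The ratios of the serotonin to the histamine enzymes put the single differences on one scale. The TPM level of Tph1 was 2440, 2072 and 3245 times that of Hdc in the BALB/c libraries S9, S10 and S11. In the C57BL/6 libraries S12, S13 and S14 it was 1093, 783 and 763 times. Every C57BL/6 ratio lay below every BALB/c ratio, which follows from Tph1 being lower and Hdc higher in every C57BL/6 library and is given as a description. Ddc stood between 43.3 and 76.3 times above Hdc in BALB/c and between 6.92 and 11 times above it in C57BL/6. Tph1 stood 41.5 to 56.3 times above Ddc in BALB/c and 99.4 to 113 times in C57BL/6.

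The sequences around the starts of the genes for synthesis and storage are shown because these 4 genes make and store the amines and include a called gene in each direction, Hdc and Ddc. They are RefSeq sequences of the C57BL/6J reference, taken from a table on build GRCm38.p6, and each matched a single place in GRCm39, whose coordinates are given. Each runs from 250 bases before the start to 50 bases after it, 5′ to 3′ on the strand of the gene. Tph1 has a pair of starts 5160 bases apart, and Ddc a pair 7736 bases apart. Capitals mark matches on either strand to the TATA box TATAAA, the GC box GGGCGG, the GATA motifs AGATAA and TGATAA, the M-box CACATG and the cyclic AMP response element TGACGTCA.
Hdc, chr2:126460549-126460848, reverse strand: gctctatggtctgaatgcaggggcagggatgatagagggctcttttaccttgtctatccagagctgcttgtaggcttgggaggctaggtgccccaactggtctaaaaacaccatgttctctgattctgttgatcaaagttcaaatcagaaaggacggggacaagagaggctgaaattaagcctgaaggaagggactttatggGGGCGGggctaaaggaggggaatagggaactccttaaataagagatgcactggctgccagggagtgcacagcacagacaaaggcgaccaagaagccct
Tph1, upstream start, chr7:46321912-46322211, reverse strand: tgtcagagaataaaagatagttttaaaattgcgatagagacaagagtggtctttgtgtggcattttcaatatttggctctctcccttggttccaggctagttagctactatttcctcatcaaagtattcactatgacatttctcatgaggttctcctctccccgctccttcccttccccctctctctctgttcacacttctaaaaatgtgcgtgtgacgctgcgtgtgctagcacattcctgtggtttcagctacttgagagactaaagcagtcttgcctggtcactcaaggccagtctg
Tph1, downstream start, chr7:46316752-46317051, reverse strand: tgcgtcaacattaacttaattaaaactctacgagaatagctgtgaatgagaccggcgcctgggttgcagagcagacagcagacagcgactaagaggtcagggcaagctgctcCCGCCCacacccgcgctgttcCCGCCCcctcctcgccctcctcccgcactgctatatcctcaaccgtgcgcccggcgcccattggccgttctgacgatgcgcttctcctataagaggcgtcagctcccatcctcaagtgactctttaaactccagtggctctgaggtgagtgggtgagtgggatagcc
Ddc, upstream start, chr11:11848095-11848394, reverse strand: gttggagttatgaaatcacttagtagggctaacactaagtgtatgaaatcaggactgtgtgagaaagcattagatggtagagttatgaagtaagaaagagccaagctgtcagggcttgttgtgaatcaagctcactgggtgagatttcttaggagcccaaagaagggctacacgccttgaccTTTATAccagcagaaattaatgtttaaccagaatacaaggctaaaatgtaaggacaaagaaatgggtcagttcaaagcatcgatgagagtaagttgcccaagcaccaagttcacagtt
Ddc, downstream start, chr11:11840359-11840658, reverse strand: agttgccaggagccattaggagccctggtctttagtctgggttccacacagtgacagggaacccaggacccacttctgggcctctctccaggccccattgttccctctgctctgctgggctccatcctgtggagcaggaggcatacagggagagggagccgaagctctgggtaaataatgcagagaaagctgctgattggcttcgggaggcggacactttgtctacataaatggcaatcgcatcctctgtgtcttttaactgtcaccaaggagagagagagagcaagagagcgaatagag
Slc18a2, chr19:59249060-59249359, forward strand: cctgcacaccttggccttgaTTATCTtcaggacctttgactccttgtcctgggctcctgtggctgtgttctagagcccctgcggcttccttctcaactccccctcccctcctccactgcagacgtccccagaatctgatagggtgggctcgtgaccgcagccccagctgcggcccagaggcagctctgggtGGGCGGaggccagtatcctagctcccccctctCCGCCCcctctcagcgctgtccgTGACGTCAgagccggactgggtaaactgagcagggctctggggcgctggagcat

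The full 8 letters of TGACGTCA stood in the Slc18a2 window from 4 bases before the start, and the motif occurs in 1.79% of the 32817 promoter windows of this length in the table. The Slc18a2 window also held GGGCGG at 2 places and AGATAA, on the opposite strand, near its upstream end. GGGCGG, found in 35.6% of all windows, was present in the windows of Hdc and of the downstream start of Tph1. TATAAA, found in 13.6% of windows, was seen on the opposite strand of the upstream start of Ddc. The upstream start of Tph1 and the downstream start of Ddc held none of these motifs. A GATA motif is in 18.6% and CACATG in 14.2% of all windows, and the windows of Hdc, Tph1 and Ddc held neither. The looser E-box CANNTG, which includes CACATG and is in 72.3% of windows, was not put in capitals. These matches describe the letters in the window, and no binding was measured.

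Tph1, on the reverse strand of chromosome 7 from 46294065 to 46321965 in GRCm39, had 185021, 174000 and 215331 reads in S9, S10 and S11 and 146104, 116058 and 148039 in S12, S13 and S14. Scaled to library size with TMM factors, these came to 5811, 5838 and 5728 CPM for BALB/c, with 4572, 4289.7 and 4182 CPM for C57BL/6. All C57BL/6 libraries were lower, and the BALB/c libraries differed little from each other, with a coefficient of variation of 0.990%. The strain difference (C57BL/6 over BALB/c throughout) was -0.41 in log2 fold change (standard error 0.04, Benjamini-Hochberg adjusted p = 1.92e-05 in edgeR), which is a fold change of 1.33. An adjusted p under 0.05 was reached by 52.9% of all genes tested.

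The tables list 4 Tph1 transcripts, and their shares of the reads were close in the strains. NM_001136084 (4270 bases) held 81.2% ± 0.588 of Tph1 reads in BALB/c and 80.2% ± 0.825 in C57BL/6 (SD, n = 3 per strain). NM_001276372, of only 628 bases, held 10.1% ± 0.538 and 11.1% ± 0.383. Because it is short, it carried 51.5% ± 1.5 of the summed TPM of Tph1 in BALB/c and 54.2% ± 1.12 in C57BL/6, so the TPM level of Tph1 rests on it to a large degree. Without this transcript Tph1 stood at 1809 ± 36.6 TPM in BALB/c and 1187 ± 76.4 TPM in C57BL/6 (SD, n = 3), still the highest of the 9 genes, and its log2 fold change from reads was -0.43. Without it Tph1 was 1019 to 1606 times above Hdc in BALB/c and 349 to 503 times in C57BL/6. The longest transcript, NM_009414 (4581 bases), held under 1% of the reads in every library. The share of reads on NM_001276372 did not overlap between strains, at 9.68% to 10.7% in BALB/c and 10.8% to 11.5% in C57BL/6 (exact permutation test, two-sided p = 0.1, adjusted p = 0.4 over the 4 transcripts of Tph1 and Ddc compared). Its share of the summed TPM did overlap, at 50.5% to 53.3% in BALB/c and 53.2% to 55.4% in C57BL/6 (exact permutation test, two-sided p = 0.2). With 3 against 3 libraries p cannot go below 0.1, so these tests cannot show that shares were equal.

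Ddc, on the reverse strand of chromosome 11 from 11762602 to 11848150, had 2665, 3280 and 3926 reads in S9, S10 and S11 and 1210, 868 and 1098 in S12, S13 and S14. Scaled, BALB/c stood at 83.7, 110.1 and 104 CPM, and C57BL/6 at 37.9, 32.1 and 31.0 CPM. The highest C57BL/6 library, S12, lay far below the lowest BALB/c library, S9. Ddc had a log2 fold change of -1.56 (standard error 0.11, 95% interval -1.81 to -1.32, adjusted p = 3.44e-06 in edgeR). Leaving out single libraries gave values from -1.67 to -1.49. Nearly all Ddc reads fell to a pair of transcripts, NM_016672 (1967 bases) and XM_006514488 (1870 bases). The first stood at 46.6 ± 6.72 CPM in BALB/c against 15.4 ± 1.82 in C57BL/6, and the second at 50.1 ± 4.74 against 17.5 ± 1.98 CPM (SD, n = 3 per strain), so both were lower to a similar degree. NM_016672 held 46.9% ± 0.339 of Ddc reads in BALB/c and 45.6% ± 1.69 in C57BL/6. NM_001190448 varied between 0 and 5.44% within a strain. The tables do not tie these transcripts to the starts printed above.

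**Figure D3:**
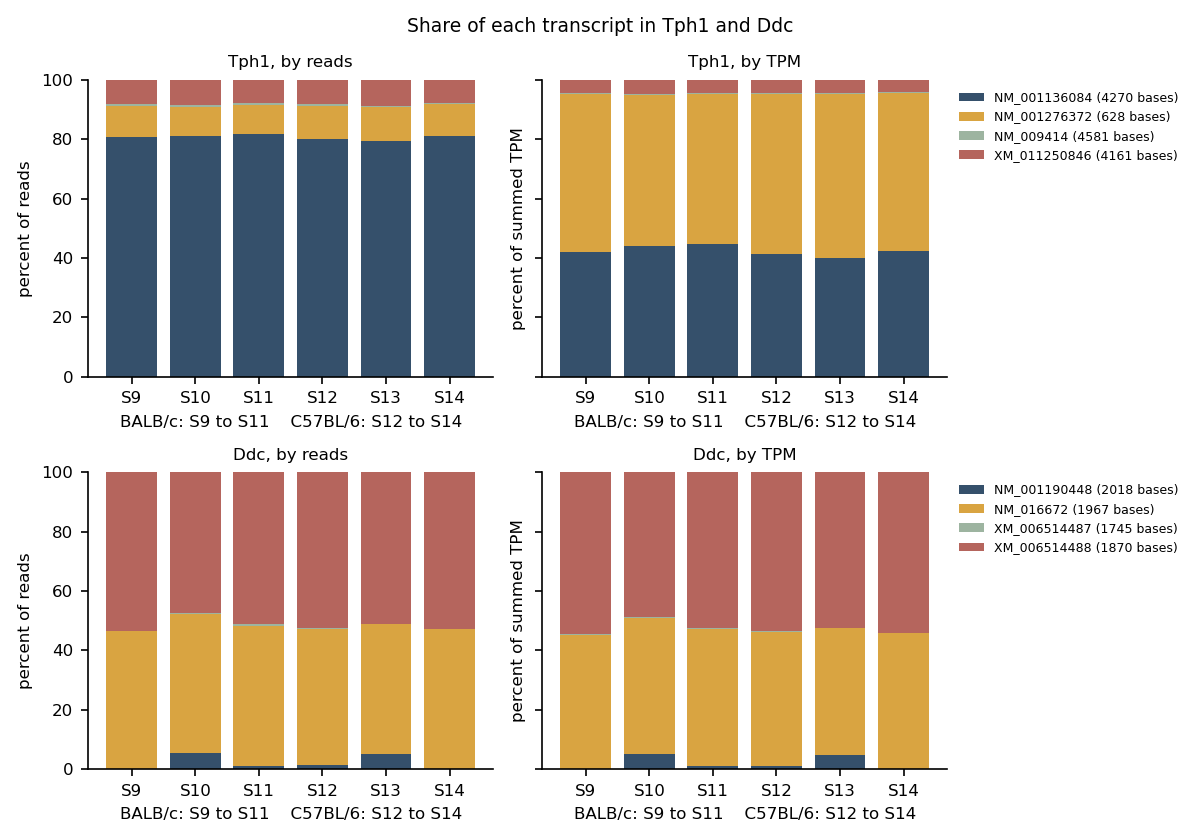
Percent of Tph1 reads (upper left), Tph1 TPM (upper right), Ddc reads (lower left) and Ddc TPM (lower right) on each listed transcript (stacked colours, with the length in bases) in the BALB/c libraries S9 to S11 and the C57BL/6 libraries S12 to S14. The stacks differ little between strains, and the 628-base transcript of Tph1 takes about 10% of the reads but over 50% of the TPM.

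Hdc, on the reverse strand of chromosome 2 from 126435558 to 126461318, had 79, 84 and 66 reads in S9, S10 and S11 and 141, 160 and 202 in S12, S13 and S14. All of them were assigned to NM_008230 (2415 bases), and none to the other listed transcript. Scaled, they gave 2.48, 2.82 and 1.76 CPM for BALB/c, and 4.41, 5.91 and 5.71 CPM for C57BL/6. The strains did not overlap, and within each strain 1 library, S11 in BALB/c and S12 in C57BL/6, lay below the other 2. For Hdc the log2 fold change was 1.19 (standard error 0.19, 95% interval 0.76 to 1.63, adjusted p = 0.000735 in edgeR). Leaving out S11 brought it to 1.01, just past the 2-fold criterion, and leaving out S10 to 1.34. On the log2(TPM + 1) scale, which shrinks differences of genes with low levels, it was 0.69 (adjusted p = 0.00186 in limma).

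Basophils make histamine through Hdc as well, and 4 genes on a list of 8 basophil genes were also higher in C57BL/6. The 8 genes summed to 406 to 418 CPM in the BALB/c libraries, against 512 to 523 in C57BL/6. All 8 were tested, and those called higher were Mcpt8, Prss34, Cebpa and Ccl9, while 7.73% of all genes were called in this direction. Prss34, Cebpa and Ccl9 passed the filter on low counts only through C57BL/6, so the count is not read against that share. Most of the higher sum came from Mcpt8, at 84.0 CPM in BALB/c against 183 in C57BL/6. Cd200r3, the most abundant of the 8, had a log2 fold change of -0.07 (adjusted p = 0.154 in edgeR), and of -0.21 with plain library size (adjusted p = 0.000741 in edgeR). Il18r1 was lower in C57BL/6 by less than 2-fold (log2 fold change -0.54, adjusted p = 0.00415 in edgeR). Ms4a3 was higher there, also under 2-fold (log2 fold change 0.99, adjusted p = 0.00240 in edgeR), and Itga2 did not pass. None of the 8 was at 0 in all libraries. In whole cultures, a change in the number of cells of a type and a change of RNA per cell cannot be told apart, and the part of basophil transcripts in the Hdc difference was not tested.

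Slc18a2, on the forward strand of chromosome 19 from 59249238 to 59284695, was the second most abundant of the 9 genes. It had 1031, 998 and 1057 CPM in BALB/c, and 1139, 1122 and 1068 in C57BL/6, with at least 29746 reads in a library. The C57BL/6 libraries were all slightly higher on this scale, with S14 close to the BALB/c library S11. The log2 fold change was 0.11 (standard error 0.04, 95% interval 0.02 to 0.20, adjusted p = 0.0405 in edgeR), a fold change of 1.08. The direction depended on the scaling. It was -0.04 with plain library size (adjusted p = 0.457 in edgeR) and -0.07 with limma on log2(TPM + 1) (adjusted p = 0.171), scalings that moved the median of all genes tested from -0.01 to -0.15. The adjusted p was above 0.05 when S9, S10, S12 or S13 was left out, with values from 0.09 to 0.11. All reads were on a single transcript of 3803 bases.

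**Figure D4:**
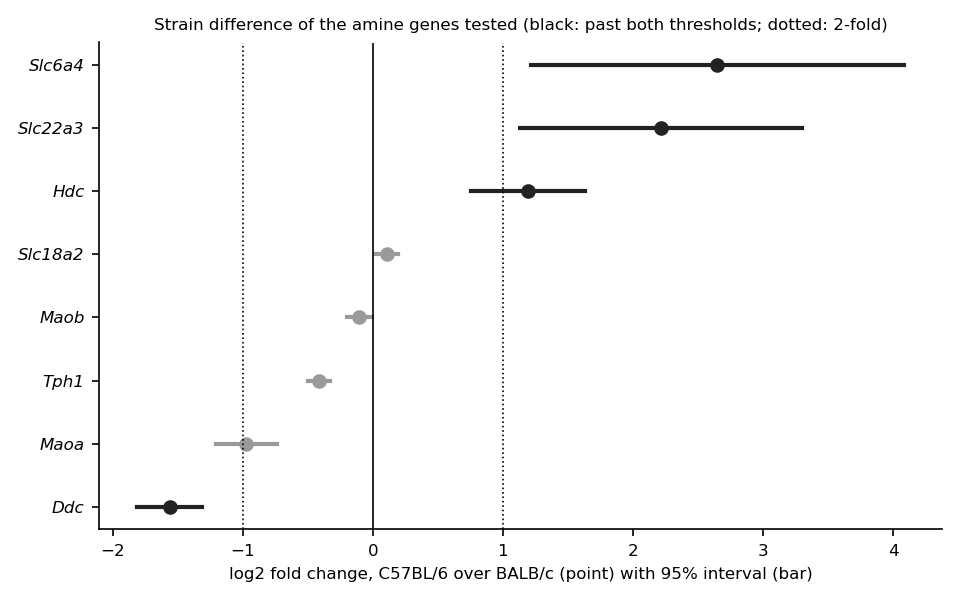
Log2 fold change between the strains, positive where C57BL/6 BMMCs were higher (horizontal axis; points) with the 95% interval from edgeR (bars) for the 8 amine genes tested, with dotted lines at a 2-fold change. Black marks the 4 genes past both criteria; the intervals of Slc6a4 and Slc22a3 are the widest and that of Tph1 is among the narrowest.

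The carriers of the plasma membrane were at the edge of detection. Slc6a4, on chromosome 11 from 76888903 to 76923169, had 5, 2 and 0 reads in S9, S10 and S11 and 17, 11 and 16 in S12, S13 and S14. Slc22a3, on chromosome 17 from 12637847 to 12726614, had 9, 1 and 8 reads in BALB/c and 21, 22 and 38 in C57BL/6. All C57BL/6 libraries were above all BALB/c libraries for both genes. No BALB/c library reached the level that the filter asks for, and every C57BL/6 library did. Summed over libraries and corrected for their size, Slc6a4 reads were 6.61 times as frequent in C57BL/6 (95% exact interval 2.95 to 17.4) and Slc22a3 reads 4.73 times (2.81 to 8.38), intervals that cover counting error only. The fitted log2 fold changes in edgeR were 2.65 for Slc6a4 (standard error 0.63, adjusted p = 0.00667) and 2.22 for Slc22a3 (standard error 0.48, adjusted p = 0.00382). Single libraries weighed heavily, since the value of Slc6a4 was 3.79 without S9 and 2.0 without S11, and that of Slc22a3 was 2.66 without S9 and 1.78 without S10. When transcripts matched to no gene were kept as further features, neither passed, with adjusted p = 0.0962 for Slc6a4 and 0.0546 for Slc22a3 from edgeR. Slc6a4 is also known from platelets, and a list of 10 megakaryocyte and platelet genes was read beside it. Of these, 7 had no more than 2 reads in any library, among them Pf4 and Ppbp. Itga2b, an integrin subunit, was abundant and higher in C57BL/6, at 1121 CPM in BALB/c against 1679.8 in C57BL/6 (log2 fold change 0.58, adjusted p = 2.88e-06 in edgeR). Gp1ba, at 303 against 241 CPM, was lower there (log2 fold change -0.33, adjusted p = 0.000846 in edgeR). Gp1bb, at 0.681 against 0.181 CPM, was called lower in C57BL/6 (log2 fold change -1.89, adjusted p = 0.0235 in edgeR), but passed the filter only through BALB/c. The summed level of the list was 1392 to 1447 CPM in the BALB/c libraries and 1846 to 1961 in C57BL/6, a difference carried by Itga2b alone, and its part in the Slc6a4 difference was not tested.

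Among the enzymes of breakdown, Maob was far above Maoa. These genes lie side by side on the X chromosome and point towards each other, Maoa from 16485893 to 16554057 on the forward and Maob from 16574807 to 16683686 on the reverse strand. Maob had 309, 328 and 304 CPM in BALB/c, against 290.0, 284 and 304 in C57BL/6. The strains nearly touched, with S11 just above S14. Maob had a log2 fold change of -0.10 (standard error 0.04, 95% interval -0.20 to -0.00301) and did not pass (adjusted p = 0.0781 in edgeR), while it was -0.25 with plain library size (adjusted p = 0.00167 in edgeR). Maoa had 328, 278 and 425 reads in BALB/c and 173, 132 and 193 in C57BL/6, or 10.3, 9.33 and 11.3 CPM against 5.41, 4.88 and 5.45 CPM. Every C57BL/6 library was well below every BALB/c library. Its log2 fold change was -0.97 (standard error 0.10, 95% interval -1.21 to -0.74, adjusted p = 5.41e-05 in edgeR), a fold change of 1.96 that missed the 2-fold criterion. Leaving out S10 or S14 moved it to -1.04 and -1.0, past that criterion, and leaving out S11 to -0.90. The TPM level of Maob was 53.6, 62.8 and 48.1 times that of Maoa in S9, S10 and S11 and 95.6, 104 and 99.3 times in S12, S13 and S14, with no overlap (p = 0.1, two-sided exact permutation test, the smallest that 3 against 3 allow; 8 ratios were compared in all).

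Since both monoamine oxidase genes are X-linked, Xist, the RNA that coats the inactive X chromosome of female cells, was read beside them. It had between 7224 and 9305 reads in 5 libraries and 0 in the BALB/c library S11, and the Y-linked genes Ddx3y, Kdm5d and Eif2s3y had 0 reads in all 6, while Uty had 1 to 4 reads in each. S11 was the highest BALB/c library for Maoa and the lowest for Maob. Without S11 the log2 fold changes were -0.90 for Maoa (adjusted p = 0.000244) and -0.13 for Maob (adjusted p = 0.050, not under the threshold), both in edgeR. The part of the Xist difference in these values was not tested further.

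Hnmt, on chromosome 2 from 23892668 to 23939872, had 0 reads on its 3 listed transcripts in each of the 6 libraries. With 3 counts as the limit that a count of 0 allows, its level was below 0.0809 to 0.106 CPM, depending on the depth of the library. This limit, like the low level of Hdc, holds for the transcripts matched to these genes by name, since unmatched transcripts were not used. Hdc lay above this limit in every library. The other enzyme that inactivates histamine, the secreted diamine oxidase Aoc1, also had 0 reads in every library.

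The wider pathway was described by 69 further genes in 5 lists, of which 33 were tested. Of these, 8 were called, 4 higher in each strain. Their median log2 fold change was 0.04, against -0.01 over all genes tested. Kmo, Hrh2, Gchfr and Sv2a among the 8 passed the filter on low counts through a single strain, so the count is not read against the 13.3% of all genes called.

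Of 12 genes for the cofactors of these enzymes (tetrahydrobiopterin for Tph1 and pyridoxal phosphate for Hdc and Ddc), 11 were tested and 3 were called, all lower in C57BL/6, as were 5.54% of all genes tested. Gchfr among them passed the filter on low counts only through BALB/c, so the count is not read against that share. By adjusted p alone 4 were higher and 4 lower, while 52.9% of all genes tested had an adjusted p under 0.05. The median log2 fold change was -0.15. Pdxk, the kinase that forms pyridoxal phosphate, had 30.4, 34.3 and 25.5 CPM in BALB/c, against 12.3, 13.1 and 13.4 in C57BL/6. Its log2 fold change was -1.21 (adjusted p = 1.42e-05 in edgeR). Pdxp, the phosphatase that removes the phosphate again, was also lower in C57BL/6 (log2 fold change -1.13, adjusted p = 0.000694 in edgeR), under 2-fold without S10 (-0.92). Gchfr, the feedback regulator of tetrahydrobiopterin synthesis, had 34, 52 and 38 reads in BALB/c and 3, 1 and 1 in C57BL/6. Its reads were 23.6 times as frequent in BALB/c (95% exact interval 9.84 to 73.9, counting error only). The fitted log2 fold change of Gchfr was -4.48, and -5.14 without S12. Gch1, the enzyme Gchfr acts on and the first of the tetrahydrobiopterin pathway, was higher in C57BL/6, at 145 ± 3.45 CPM against 92.7 ± 1.13 in BALB/c (SD, n = 3 per strain), under 2-fold (log2 fold change 0.65, adjusted p = 1.01e-06 in edgeR). Qdpr, which recycles the cofactor, had a log2 fold change of 0.47 (adjusted p = 1.06e-05 in edgeR). The neuronal enzyme Tph2 had 0 reads in every library.

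Of 16 carriers of histidine or tryptophan and enzymes that divert these amino acids, 8 were tested and 3 were called, all higher in C57BL/6, as were 7.73% of all genes tested. Kmo among them passed the filter on low counts only through C57BL/6, so the count is not read against that share. The median log2 fold change was 0.19. Kmo, which hydroxylates kynurenine in the breakdown of tryptophan, had 1, 2 and 1 reads in BALB/c and 200, 168 and 228 in C57BL/6, a ratio of 157 (95% exact interval 60.9 to 577, counting error only). Haao, which acts further down that route, went from 0.858 ± 0.128 to 4.06 ± 0.494 CPM (SD, n = 3 per strain; log2 fold change 2.24, adjusted p = 9.62e-06 in edgeR). The enzymes that open the route, Ido1, Ido2 and Tdo2, had 0 reads in every library, as had Kynu. The aromatic amino acid carrier Slc16a10 went from 1.63 ± 0.420 to 6.36 ± 0.929 CPM (log2 fold change 1.95, adjusted p = 3.59e-05 in edgeR). The abundant carrier Slc7a5 was at 945 ± 12.9 CPM in BALB/c, against 782 ± 30.4 in C57BL/6 (log2 fold change -0.27, adjusted p = 0.000287 in edgeR). Slc7a8, the other abundant amino acid carrier that changed, went the other way, at 588 ± 57.3 against 717 ± 23.1 CPM (log2 fold change 0.29, adjusted p = 0.00556 in edgeR), and did not pass with plain library size (0.14, adjusted p = 0.0997 in edgeR).

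The list of 11 other amine carriers also held Sv2a, Sv2b and Sv2c, which are glycoproteins of secretory vesicles rather than known amine carriers. Only 2 of the 11 were tested. Slc18b1 was lower in C57BL/6 by less than 2-fold (log2 fold change -0.82, adjusted p = 0.0495 in edgeR). Sv2a was called lower there, as were 5.54% of all genes tested. It passed the filter on low counts only through BALB/c, so the count is not read against that share. Sv2a had 31, 31 and 60 reads in BALB/c and 3, 3 and 5 in C57BL/6, so that its reads were 10.6 times as frequent in BALB/c (95% exact interval 5.69 to 21.7, counting error only). The other vesicular monoamine transporter, Slc18a1, had at most 14 reads in a library. Of 13 other genes for breakdown and conversion, 7 were tested and none was called by edgeR, while 3 had an adjusted p under 0.05. Among all genes tested 13.3% were called and 52.9% had an adjusted p under 0.05. The largest difference was that of the aldehyde dehydrogenase Aldh7a1, at 5.88 ± 0.0772 CPM in BALB/c against 10.9 ± 0.95 in C57BL/6 (log2 fold change 0.89, adjusted p = 5.10e-05 in edgeR). Aldh2, a mitochondrial enzyme that oxidises the aldehydes monoamine oxidases leave, was at 273 ± 16.1 and 325 ± 12.8 CPM (log2 fold change 0.25, adjusted p = 0.00290 in edgeR). With plain library size Aldh2 did not pass (0.11, adjusted p = 0.126 in edgeR).

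Of 17 receptors for histamine and serotonin, 5 were tested and 1 was called, higher in C57BL/6, as were 7.73% of all genes tested. This was Hrh2, the histamine receptor 2, which passed the filter on low counts only through C57BL/6, so the count is not read against that share. Hrh2 had 13, 2 and 30 reads in BALB/c and 338, 332 and 475 in C57BL/6. Every C57BL/6 library was over 10 times above the highest BALB/c library in reads, and the reads were 26.7 times as frequent (95% exact interval 19.9 to 36.9, counting error only). The fitted log2 fold change of Hrh2 was 4.74 (standard error 0.36, adjusted p = 5.58e-06 in edgeR), and 5.61 without S11. Hrh4 stood at 2.75 ± 0.213 CPM in BALB/c against 2.82 ± 0.323 in C57BL/6, and its strains overlapped (log2 fold change 0.04, adjusted p = 0.846 in edgeR).

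**Figure D5:**
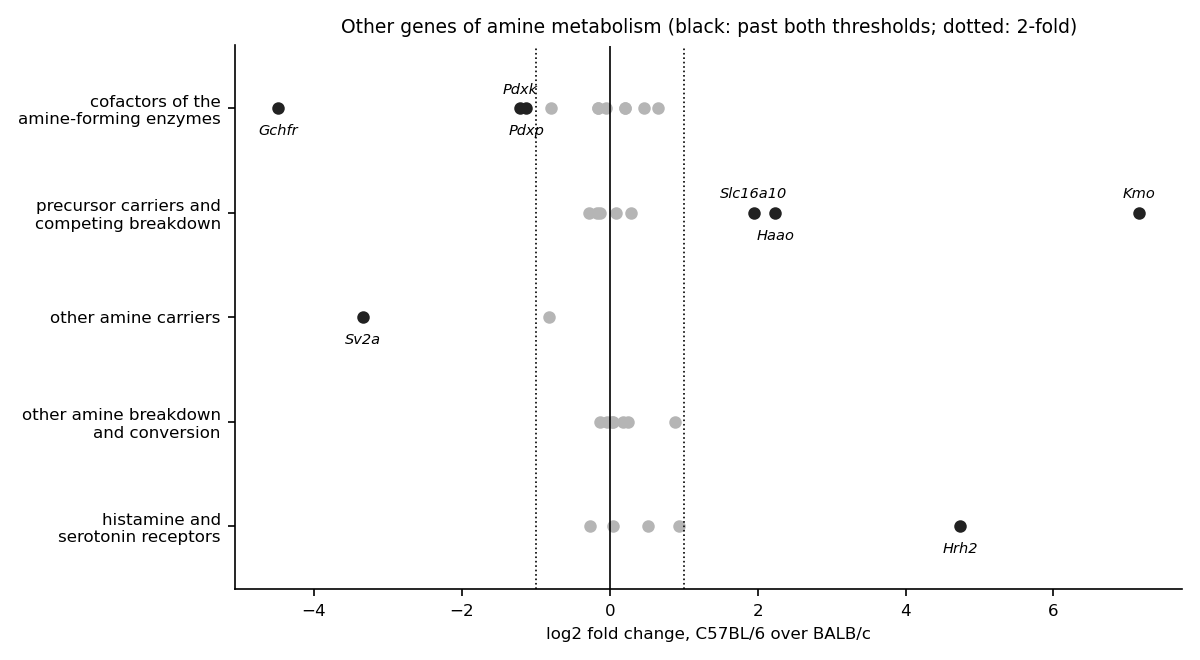
Log2 fold change between the strains (horizontal axis, positive where C57BL/6 BMMCs were higher) of the 33 further genes of amine metabolism tested, in 5 lists (rows), each point a gene, with dotted lines at a 2-fold change. The 8 genes past both criteria are black and named; Kmo and Hrh2 lie farthest towards C57BL/6 and Gchfr and Sv2a farthest towards BALB/c.

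For 4 of the genes, the genes with the most similar profile over the 6 libraries were sought by the root-mean-square distance between log2 CPM profiles, each centred on its own mean, among 11063 genes. The 3 nearest to Hdc were B430319G15Rik (distance 0.08), Icosl (0.12) and Ppp3cc (0.13). Polr1e (distance 0.02) and Mllt3 (0.03) were among the 3 nearest to Tph1. The 3 nearest to Ddc were Sla (distance 0.07), Gm10532 (0.08) and Ffar2 (0.09), and the 3 nearest to Slc18a2 were Eprs, Ddx21 and Tmod3 (each 0.01). The strain difference is part of each profile, so genes of similar log2 fold change lie near each other. For Slc18a2 it was 0.11, and for Eprs, Ddx21 and Tmod3 0.12, 0.11 and 0.11. The distances describe 6 libraries only.

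Reads assigned to genes numbered between 28273365 and 37100869 per library. The libraries carried mast cell transcripts throughout. All 10 mast cell markers were tested and none was called, while 13.3% of all genes were. By adjusted p alone 5 were higher and 2 lower in C57BL/6, beside 52.9% of all genes tested that passed in either direction. The 2 lower were Cma1 (log2 fold change -0.43, adjusted p = 0.00107 in edgeR) and Mitf (-0.23, adjusted p = 0.00124 in edgeR). The 10 markers summed to 133944 to 144539 CPM in the BALB/c libraries against 165460 to 188929 in C57BL/6, mostly through Mcpt1 and Mcpt2. None of the 8 neutrophil, 8 eosinophil and 6 stromal genes had enough reads for a test. Of 8 macrophage genes only Adgre1 and Cd68 were tested, both called higher in C57BL/6, as were 7.73% of all genes tested. Of 6 erythroid genes, Hbb-bt was called higher and Klf1 lower in C57BL/6, and Ncr1, alone tested among T and NK cell genes, was not called. Hbb-bt had 0 reads in every BALB/c library and 186, 160 and 214 in C57BL/6. Hba-a1, an erythroid gene that was not tested, had 10, 10 and 7 reads in BALB/c and 5, 2 and 3 in C57BL/6. Adgre1 and Hbb-bt passed the filter on low counts only through C57BL/6, so their direction was a condition of being tested. The counts of these lists are not read against the 7.73%.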

How the data were processed

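Reads of 6 BMMC libraries were checked by the authors with FastQC (0.11.5) and assigned to transcripts with Salmon (0.8.2). The deposited tables give, per transcript, the length, an estimated count of reads with decimals and TPM, for which Salmon relates counts to effective length and to a common total. The study names Ensembl GRCm39 as the target, while the deposited tables list RefSeq accessions.

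Accessions, with the version removed, were matched to symbols through a RefSeq gene table of GRCm38.p6, used for names only. Of 129698 transcripts, 106440 matched; the remainder, with 2.69% to 3.12% of the reads, was not used. Estimated counts were then summed per gene and rounded. Gene coordinates are those of GENCODE on GRCm39. Salmon splits reads that fit several transcripts, and the reference is of C57BL/6J, so reads that differ from it can be placed differently.

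Strains were compared in edgeR (4.0.16, in R 4.3.3) by the quasi-likelihood test, with TMM factors, a minimum count of 10, strain as the single term and Benjamini-Hochberg adjustment over 12461 genes, with thresholds of 0.05 and 2-fold. The code was tested on simulated data. Intervals around fold changes are 95% intervals. Transcript shares and ratios were compared with exact permutation tests. DESeq2 (1.42.0), limma (3.58.1) on the log2 of TPM plus 1 or 0.1, other scalings and filters, unmatched transcripts as features, the adjusted p alone and each library left out were the alternatives, with a Tph1 sum lacking its 628-base transcript added later. TPM carries no TMM factor.

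The genes, lists and rules were chosen with earlier results of these data known. Named were all 9 genes, called genes of the lists (otherwise the largest difference), leading markers and nearest profiles (mean of at least 1 CPM); Slc7a5, Slc7a8, Gch1, Qdpr, Aldh2, Hrh4, Xist and undetected genes were added after their values were seen. A gene among the nearest profiles of Tph1 is not reported here.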

Additional observations from a re-analysis of the deposited data

How the results depend on the processing

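The number of the 9 genes called was 4, and 2 with at least 10 counts in every library (where Slc6a4 and Slc22a3 were not tested), 1 on log2(TPM + 1), 2 with unmatched transcripts kept, 5 with plain library size (Maoa added) and 7 by adjusted p alone. Among all genes the count was 1653, and 1017, 799, 1812, 1667 and 6588 under these alternatives in the same order. Leaving out single libraries gave 4 to 5 of the 9 genes, with Maoa added without S10 or S14. The number of pathway genes called was 8, and 4, 5 and 21 with at least 10 counts in every library, on log2(TPM + 1) and by adjusted p alone, and 10 with DESeq2 or no filter. It lay between 7 and 11 with a library left out, highest without S12.

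The log2 fold change of Slc18a2 was 0.11 and did not pass with upper-quartile factors (0.088), no filter (0.10) or unmatched transcripts kept (0.10), and turned to -0.035 with plain library size, -0.0681 on log2(TPM + 1) and -0.0683 on log2(TPM + 0.1). With a library left out it lay between 0.085 and 0.14, and passed only without S11 or S14. The value of Slc6a4 was 2.59 and that of Slc22a3 2.23 with unmatched transcripts kept, without passing. On log2(TPM + 1) they shrank to 0.24 and 0.30, under 2-fold, with an adjusted p still under 0.05 in limma. Maob passed with upper-quartile factors (-0.12), plain library size (-0.25), log2(TPM + 1) (-0.28) and log2(TPM + 0.1) (-0.28), and lay between -0.13 and -0.07 with a library left out. The share of Ddc reads on XM_006514488, 1.52 percentage points higher in C57BL/6, lay between -0.080 and 2.87 with a library left out, turning without S10. For Hdc, Tph1, Ddc and Maoa, direction and side of the adjusted p threshold were the same in every alternative, with Hdc at 0.97 and Maoa at -1.10 on log2(TPM + 0.1). The cause of these changes was not tested. The labels number the libraries S9 to S14 with no number shared between strains. Reads were few for Slc6a4 and Slc22a3 and none for Hnmt, so depth limits what can be said of them.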
